A study of Mus musculus with 18 samples.

Results

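Far intergenic open regions are stretches of open chromatin in liver macrophages (LMs) that lie outside every annotated gene, more than 1 kb from every transcription start site of any gene type, and more than 50 kb from the nearest start of a protein-coding gene. Of 69499 open regions in the list, 68533 lay on chromosomes 1 to 19, where the rule was applied to the midpoint of each region. Of these, 7667 were far intergenic (11.2%, 95% Wilson confidence interval 11.0% to 11.4%), while 14576 (21.3%) were near intergenic, by the same rule but within 50 kb of a coding start. Another 23376 (34.1%) lay in introns, 2469 in exons, and 20445 (29.8%) within 1 kb of a start. The rule used position only, so the density, sequence, and grouping of the regions were not used to choose them. The members just inside the limit were chr2:124529293-124529472, at 50011 bp from a start of *Sema6d*, and chr8:96978953-96979103, at 50020 bp from a start of *Ap3s1-ps2*. The regions just outside it were chr2:118802108-118802387, at 49997 bp from *Chst14*, and chr15:38377074-38377224, at 49994 bp from *Azin1*.

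The regions come from ATAC-Seq, in which the Tn5 transposase cuts accessible DNA and tags it for sequencing, on macrophages isolated from fatty livers with 50000 cells per reaction. The groups were control mice, *Reverb*-hDKO mice, which lack both REV-ERB genes in hepatocytes, and *Reverb/Scap*-hTKO mice, which also lack *Scap* there, each at zeitgeber times ZT10 and ZT22 with 3 replicates, or 18 libraries. All were male C57BL/6J mice with floxed alleles on a high-fat, high-sucrose diet for 4 weeks. The deletions were made in adult mice with a virus that carries Cre under the hepatocyte promoter TBG, controls received GFP from the same vector, and the sequenced macrophages were not the target of the deletion. The list is 1 set of coordinates for all libraries, with no count, signal, or sample, so the depth is unknown, no spread between replicates can be given, and neither genotypes nor times could be compared at any region. Intervals below cover counting error only, and because neighboring regions are not independent they are narrower than the true uncertainty.

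Macrophages turn on their genes largely through distal enhancers, which the lineage factor PU.1 opens together with C/EBP, AP-1, RUNX, IRF, and MAF proteins. Such elements can lie far from the gene they act on, and the large stretches without genes in which many of them sit are often next to genes for transcription factors and signaling proteins. CTCF, by contrast, marks the boundaries of chromatin loops, and binding sites for NRF1 and SP/KLF proteins are typical of CpG-rich promoters. HNF4A, FOXA, and HNF1 are the corresponding factors of hepatocytes, and GATA factors are prominent in the endothelial cells of the liver.

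The label of the cells was checked on the starts of marker genes, which are not far intergenic. A region midpoint lay within 1 kb of a start for 12 of 17 macrophage markers on chromosomes 1 to 19, including those of the Kupffer cell genes *Clec4f*, *Timd4*, and *Cd5l*, and of *Sfpi1*, which encodes PU.1. There was none at *Csf1r*, *Fcer1g*, *Lyz2*, *Marco*, and *Mpeg1*. Hepatocyte markers had an open start in 9 of 10 cases and endothelial markers in 8 of 10, against 4 of 10 for stellate cells, 3 of 10 for T and B cells, and 2 of 10 for neurons and muscle. Over all coding genes the share with an open start was 57.7%, so that these short lists are a weak check of the label. The list therefore also holds open starts of genes that define other liver cells, and the part of these cells in the far intergenic regions was not tested.

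Sequences of members at the extremes of the set show the range of DNA that it holds. They are from the plus strand of mm9, with the letters of any of the 24 searched motifs in capitals. The first 3 held the most different motifs of all members, and each lies in sequence that is mostly or wholly present in 1 copy.
chr3:13435487-13435637: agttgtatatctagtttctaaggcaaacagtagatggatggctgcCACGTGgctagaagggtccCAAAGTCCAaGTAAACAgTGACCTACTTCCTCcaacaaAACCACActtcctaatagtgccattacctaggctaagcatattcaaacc
chr9:120685773-120686018: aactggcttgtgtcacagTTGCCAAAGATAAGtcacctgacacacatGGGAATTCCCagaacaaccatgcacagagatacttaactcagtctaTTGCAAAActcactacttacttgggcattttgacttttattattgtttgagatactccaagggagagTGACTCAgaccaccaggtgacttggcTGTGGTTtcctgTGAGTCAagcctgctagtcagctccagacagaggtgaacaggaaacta
chr2:65279769-65279986: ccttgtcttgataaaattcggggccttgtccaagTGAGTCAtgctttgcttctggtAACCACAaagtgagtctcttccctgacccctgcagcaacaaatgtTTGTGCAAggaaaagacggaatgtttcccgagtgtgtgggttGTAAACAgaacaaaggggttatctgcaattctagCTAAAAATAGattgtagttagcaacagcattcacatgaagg
In the first, on chromosome 3 and 341 kb from a start of *Ralyl*, a region of the smallest width in the set held 6 motifs, those of PU.1 (ACTTCCTC, at 13435575 to 13435582), RUNX, HNF4A, FOXA, the E-box, and the RORE, the element that REV-ERBs and RORs recognize. The RORE (TGACCTACT, at 13435569 to 13435577) and the PU.1 motif share bases. The second lies 152 kb from a start of *Ctnnb1*, which encodes β-catenin, and held 2 AP-1 and 2 C/EBP matches beside RUNX, NF-κB, and GATA motifs. The third lies 53.4 kb from *Scn3a*, a sodium channel gene, and held AP-1, C/EBP, RUNX, MEF2, and FOXA motifs. A match is a description of the letters and not a measured binding site.

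The members farthest from a coding start all lie in 1 gene desert on chromosome 1, at 2207, 2130, and 2034 kb from starts of the cadherin gene *Cdh20*, the neurexin-family gene *Cntnap5b*, and again *Cdh20*.
chr1:104458015-104458186: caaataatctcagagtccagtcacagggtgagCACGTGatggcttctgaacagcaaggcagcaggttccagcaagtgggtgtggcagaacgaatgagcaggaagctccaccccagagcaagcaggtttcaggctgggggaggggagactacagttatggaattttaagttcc
chr1:103798868-103799018: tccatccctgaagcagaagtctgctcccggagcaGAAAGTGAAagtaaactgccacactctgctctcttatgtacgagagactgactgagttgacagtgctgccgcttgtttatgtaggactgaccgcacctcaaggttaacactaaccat
chr1:104630713-104630916: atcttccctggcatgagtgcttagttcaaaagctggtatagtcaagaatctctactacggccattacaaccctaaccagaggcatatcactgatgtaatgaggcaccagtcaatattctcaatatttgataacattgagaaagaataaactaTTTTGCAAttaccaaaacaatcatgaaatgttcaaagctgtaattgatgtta
They held an E-box, an IRF motif, and a C/EBP motif. Of the 31-base words of the farthest member, 59.2% occur once in the assembly, against 100% for the other two.

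The widest member spans 484 bp, at chr15:85499954-85500437, 65.2 kb from a start of *Ppara*, the fatty acid-sensing nuclear receptor. It held none of the 24 motifs, and its central 300 bases are given. The next widest of those not passed over were 467 bp at chr15:36645760-36646226 near *Ywhaz* and 464 bp at chr12:21574387-21574850 near *Ywhaq*, which both encode 14-3-3 proteins.
chr15:85500046-85500345: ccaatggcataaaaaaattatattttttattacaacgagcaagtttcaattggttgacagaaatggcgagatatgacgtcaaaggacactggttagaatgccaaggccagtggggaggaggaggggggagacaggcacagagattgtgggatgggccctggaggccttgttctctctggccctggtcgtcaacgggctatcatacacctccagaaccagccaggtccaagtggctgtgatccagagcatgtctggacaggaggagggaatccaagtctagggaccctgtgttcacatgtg
The CpG-rich members, defined below, are the exception in base composition. Among those not passed over, the member with the highest ratio of observed to expected CpG (1.22 in the surrounding 500 bp) was chr5:33016169-33016398 near *Pisd*. It runs into an assembly gap, and its sequence is not printed. The next members, near *Mkl2* and *Gm17359*, had ratios of 1.10 and 1.09 and a GC content of 68.6% and 79.5%.
chr16:13437294-13437487: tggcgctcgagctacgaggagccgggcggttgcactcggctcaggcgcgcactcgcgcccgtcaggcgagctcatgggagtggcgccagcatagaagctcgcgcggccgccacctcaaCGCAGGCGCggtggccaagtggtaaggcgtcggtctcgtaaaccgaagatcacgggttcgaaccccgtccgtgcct
chr3:79090836-79090986: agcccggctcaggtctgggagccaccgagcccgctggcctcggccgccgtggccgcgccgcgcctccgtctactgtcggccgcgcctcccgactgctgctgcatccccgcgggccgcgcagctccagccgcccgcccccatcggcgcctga
The former held the NRF1 motif CGCAGGCGC at 13437412 to 13437420, and the latter held no searched motif.

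Open regions were sparse in far intergenic sequence. This sequence makes up 879 Mb, or 36.7% of the assembled bases of chromosomes 1 to 19, and held 8.73 regions per Mb (95% exact Poisson interval 8.53 to 8.92). Near intergenic sequence held 29.9 per Mb, which is 3.43 times as many, and introns held 26.9 per Mb. On average, 115 kb of far intergenic sequence came with each member, and the members covered 0.157% of it.

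The density was lower in each further distance class, on both sides of the 50 kb limit. It was 36.5 per Mb at 1 to 5 kb from a coding start, 34.0 at 5 to 10 kb, 31.2 at 10 to 20 kb, and 25.5 at 20 to 50 kb. Among the far intergenic regions it was 18.1 (17.5 to 18.7) at 50 to 100 kb, 11.2 (10.7 to 11.7) at 100 to 200 kb, 5.44 (5.17 to 5.72) at 200 to 500 kb, 2.23 (1.99 to 2.48) at 500 to 1000 kb, and 1.18 (0.922 to 1.49) beyond 1000 kb. The intervals of neighboring far intergenic classes did not overlap. The GC content of the underlying sequence was also lower at distance, going from 43.0% at 1 to 5 kb to 41.9% at 50 to 100 kb and 36.9% beyond 1000 kb, and its part in the fall of the density was not tested.

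**Figure D1:**
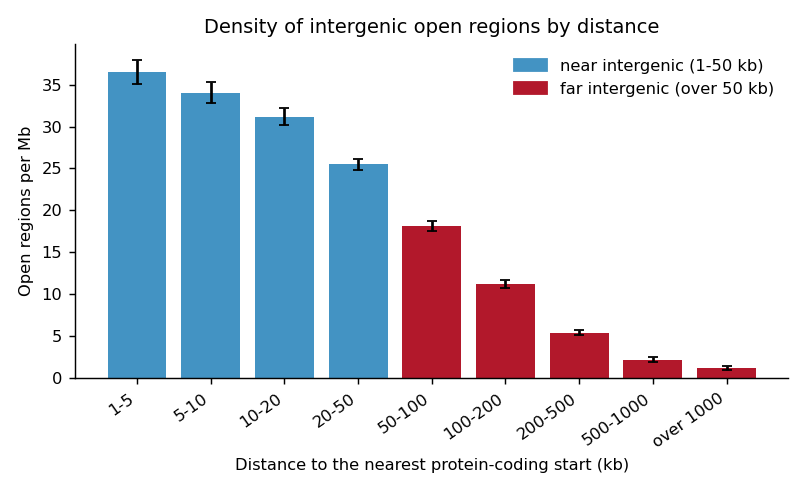
Open regions per Mb of intergenic sequence (vertical axis) in classes of distance to the nearest protein-coding start in kb (horizontal axis), with blue bars for near and red bars for far intergenic sequence and 95% Poisson intervals as error bars. The bars fall at every step, from 36.5 per Mb at 1 to 5 kb to 1.18 per Mb beyond 1000 kb.

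The members were not spread evenly over these distances. The median distance to a coding start was 111 kb, with quartiles of 71.8 and 198 kb. More than 100 kb separated 4231 members (55.2%) from any coding start, more than 200 kb 1892 (24.7%), more than 500 kb 392 (5.11%), and more than 1 Mb 70 (0.913%). The member lay before the nearest start, on the side away from the gene, in 4180 cases (54.5%). The rule leaves out gene bodies, which lie on the other side of a start. The same share of far intergenic sequence was not computed, so no excess of members can be read from this. Of all members, 5491 (71.6%) were also more than 50 kb from any start of a noncoding gene. The other 2176 had a noncoding start within 50 kb, most often that of a pseudogene (516), a processed transcript (397), a small nuclear RNA (347), a microRNA (265), a small nucleolar RNA (246), or a long intergenic noncoding RNA (207). Only 28 members lay within 10 kb of an assembly gap or chromosome end.

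The lower density was found on each chromosome. Near intergenic sequence was denser than far intergenic sequence on 19 of 19 chromosomes, by 1.85 to 5.02 times. Far intergenic density ran from 6.72 per Mb on chromosome 3 to 13.1 on chromosome 13, with a median of 8.40. The share of a chromosome's regions that were far intergenic ran from 4.92% on chromosome 19 to 20.2% on chromosome 13.

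**Figure D2:**
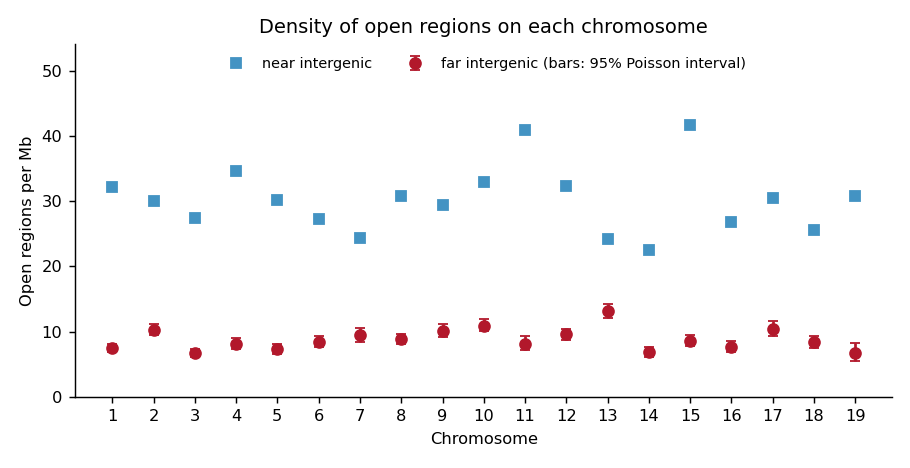
Open regions per Mb (vertical axis) of far intergenic sequence (red circles, with 95% Poisson intervals) and near intergenic sequence (blue squares, no intervals drawn) on chromosomes 1 to 19 (horizontal axis). The red circles lie between 6.72 and 13.1 per Mb and below the blue square on every chromosome.

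Far intergenic regions were narrow, as most distal regions in the list were. Their median width was also the smallest width among them, and 4081 members (53.2%) had exactly this width, against 50.3% of near intergenic regions. The upper quartile was 202 bp, against 207 bp for near intergenic regions. The mean was 180 ± 43.7 bp (SD over 7667 regions), against 184 ± 47.3 bp for near intergenic regions, 179 ± 44.5 bp for intronic regions, and 199 ± 53.1 bp at promoters. The mean was below that of near intergenic regions on 17 of 19 chromosomes, but the difference was small beside the SD. The widest member, near *Ppara*, measured 484 bp.

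Their GC content was higher than that of the DNA around them and lower than that of other open regions. The median was 49.0% in members, 51.0% in near intergenic, 50.6% in intronic, and 61.3% in promoter regions, and it was below that of near intergenic regions on 19 of 19 chromosomes. Windows of the same width 2 kb to either side of the members had a median of 43.9%, and 76.8% of members exceeded their own windows. The median fell with distance, from 50.0% at 50 to 100 kb to 48.9% at 100 to 200 kb, 47.6% at 200 to 500 kb, and 44.8% beyond 500 kb.

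CpG-rich members were few. With a CpG-rich region defined by a GC content of at least 50% and a ratio of observed to expected CpG of at least 0.6 in the 500 bp around the midpoint, 118 members were CpG-rich (1.54%, 1.29% to 1.84%), against 4.18% of near intergenic, 1.22% of intronic, and 59.2% of promoter regions. By distance, the share was 2.42% at 50 to 100 kb and 0.81% at 100 to 200 kb. The CpG-rich members had a median width of 177.5 bp and held the SP/KLF motif GGGGCGGGG in 10.2% of cases and the NRF1 motif GCGCNTGCG in 5.08%, against 0.808% and 0.278% of the other members. Both motifs are rich in G and C and hold CpG, so these higher shares are partly built into the choice of the members. The PU.1 motif was in 0 of the 118, which allows a share of up to 2.54% if 3 counts are taken as the limit of a count of 0, and up to 3.15% by the Wilson interval. Only 9 lay within 5 kb of an annotated noncoding start.

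Most members lay in sequence present in 1 copy. In 91.7% of them every 31-base word occurred once in the assembly, and in 32 (0.417%) fewer than 50% of the words did. Sequence of high copy number, here at least 50% of bases in 16-base words with at least 100 copies, made up 145 members (1.89%), but 13.7% of windows beside them. This share rose with distance, from 1.25% at 50 to 100 kb to 5.36% beyond 500 kb. Microsatellites were found in 91 members (1.19%).

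Motif matches did not lie symmetrically around the midpoints of the members. Within 100 bp of the midpoint, 98 CTCF matches lay toward lower coordinates and 34 toward higher ones, with a median position of -31 bp. The same side held more matches for PU.1 (269 and 138, median -28.5 bp), HNF4A (80 and 32, -27 bp), AP-1 (476 and 309, -18 bp), and C/EBP (768 and 593, -11.5 bp), and for 18 of the 24 motifs in all. The mean GC content of members was likewise highest at about 30 bp toward lower coordinates (50.0%), and it was 48.0% at 150 bp on that side and 45.3% at 150 bp on the other. Near intergenic regions showed the same offset, with a median of -30 bp for CTCF. The offset is in the coordinates as deposited, and its cause was not tested. When every region was moved 35 bp toward lower coordinates, an alternative chosen after this was seen, the shares of members with the CTCF, PU.1, HNF4A, and AP-1 motifs were 1.70%, 4.84%, 1.51%, and 8.99%, each within the interval of the share given below.

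**Figure D3:**
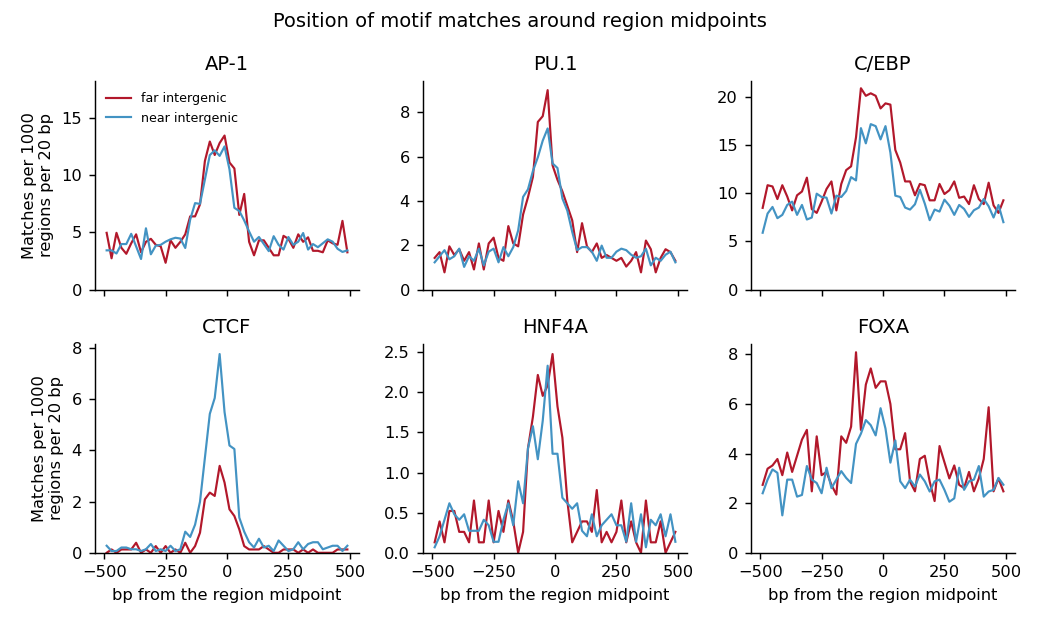
Motif matches per 1000 regions in 20 bp steps (vertical axes) against the distance from the region midpoint in bp on the plus strand (horizontal axes) for 6 motifs, in far (red) and near intergenic (blue) regions. The matches pile up near the midpoint and toward its left, with median positions of -31 bp for CTCF and -18 bp for AP-1 in far intergenic regions.

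Among the motifs of macrophage factors, only that of C/EBP had a share that differed between far and near intergenic regions with an interval that leaves out 0. Any of 7 motifs (AP-1, PU.1, C/EBP, IRF, RUNX, MAF, and MEF2) was present in 2700 members (35.2%, 34.2% to 36.3%), in 31.5% of near intergenic regions, and in 31.6% of intronic regions, against 21.6% of the windows beside the members. The C/EBP motif is the most frequent of the 7 and is rich in A and T. At least 2 of the 7 were present in 459 members (5.99%). Beyond 500 kb, 133 of 392 members (33.9%, 29.4% to 38.7%) held at least 1.

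AP-1, the JUN and FOS family of stress- and stimulus-responsive factors, binds TGACTCA. The letters were in 664 members (8.66%, 8.05% to 9.31%), in 3.33% of the windows beside them, and in 7.92% of near intergenic regions. The letters in reversed order, which have the same composition, were in 4.08% of members. The difference between far and near intergenic regions was 0.74 percentage points (95% Newcombe interval -0.02 to 1.51), with the higher share on 12 of 19 chromosomes. The share was 8.93% at 50 to 100 kb, 9.19% at 100 to 200 kb, and 7.76% at 500 to 1000 kb.

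The PU.1 motif GAGGAAGT was in 340 members (4.43%, 4.00% to 4.92%), in 1.29% of the windows, and in 1.12% with reversed letters. PU.1 is the ETS factor that defines the macrophage lineage. Near intergenic regions held its motif in 4.20% and intronic regions in 4.65% of cases, and the differences of 0.24 (-0.32 to 0.81) and -0.21 (-0.73 to 0.34) percentage points both had intervals that include 0. By distance the share was 4.60% at 50 to 100 kb, 4.28% at 100 to 200 kb, and 4.53% at 200 to 500 kb.

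C/EBP factors, which include the myeloid regulators C/EBPα and C/EBPβ, were searched with TTGCNNAA. This motif was the commonest, in 1116 members (14.6%, 13.8% to 15.4%), with 7.81% of the windows and 1.85% for reversed letters. The reversed letters hold a CpG that the motif lacks. Because CpG was scarce around members (median ratio of observed to expected 0.204), the reversed share is not a matched control. The share of members with the motif was 3.07 percentage points higher than in near intergenic regions (2.14 to 4.02), on 17 of 19 chromosomes. It rose with distance from 10.8% at 1 to 5 kb to 13.7% at 50 to 100 kb and 16% at 200 to 500 kb. Its share fell with GC content. In regions with a GC content under 45% it was 21.4% in far and 18.1% in near intergenic regions, in those of 45% to 50% it was 15.1% and 14.4%, in those of 50% to 55% 11.7% and 9.85%, and in those of 55% or more 7.41% and 6.06%. The far intergenic share was the higher one in each class, although the intervals of the shares overlapped in all 4 classes. Overlap of separate intervals does not settle whether 2 shares differ, and no interval of the difference was computed within a class.

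The RUNX motif AACCACA was in 456 members (5.95%), 3.97% of the windows, and 5.63% of near intergenic regions. The MAF motif TGCTGANTC was in 136 members (1.77%), 0.743% of the windows, and 2.02% of near intergenic regions. Of the members with AP-1 letters, 10.2% also held the MAF motif, against 0.971% of the others, and because these patterns can share bases the pairing is partly built into the search. The IRF motif GAAANNGAA was no commoner in members (6.10%) than in the windows (6.42%), its share was higher with reversed letters, and near intergenic regions held it in 5.76% of cases. The MEF2 motif was in 38 members (0.496%) and 0.377% of near intergenic regions. The far minus near intervals of these 4 motifs all include 0. The C/EBP and PU.1 motifs were not more frequent in members with AP-1 letters than in the rest. Of members with AP-1 letters, 14.5% held the C/EBP motif and 3.46% the PU.1 motif, against 14.6% and 4.53% of members without AP-1 letters.

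**Figure D4:**
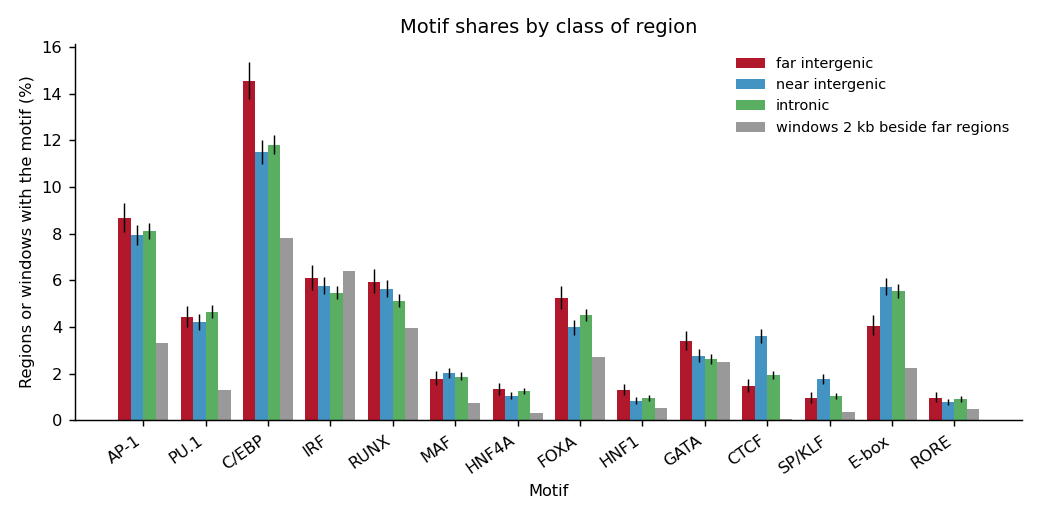
Percent of regions with each of 14 motifs (vertical axis) in far intergenic (red), near intergenic (blue), and intronic regions (green), with 95% Wilson intervals, and in the same-width windows 2 kb beside far intergenic regions (gray). The red bar is above the blue bar for C/EBP (14.6% and 11.5%) and below it for CTCF (1.46% and 3.59%), and both stand above the gray bar.

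CTCF motifs were scarcer far from genes. The CTCF consensus was in 112 members (1.46%, 1.22% to 1.75%), in 3.59% of near intergenic regions, and in 1.94% of intronic regions. The far intergenic share was 2.13 percentage points lower than the near intergenic one (interval of the far minus near difference -2.53 to -1.72), and it was lower on 19 of 19 chromosomes. It fell within the far intergenic regions too, from 1.89% at 50 to 100 kb to 1.28% at 100 to 200 kb and 1.00% at 200 to 500 kb, with 2 of 322 members at 500 to 1000 kb and 0 of 70 beyond 1000 kb, which allows a share of up to 4.29% if 3 counts are taken as the limit of a count of 0, and up to 5.20% by the Wilson interval. The order held within classes of GC content, at 0.522% and 1.92% under 45%, 1.27% and 2.82% at 45% to 50%, 2.02% and 4.34% at 50% to 55%, and 2.36% and 4.58% at 55% or more, for far and near intergenic regions. Even so, the consensus was 20.4 times as common in members as in the windows beside them (0.0717%), the highest ratio of the 24 motifs, and with reversed letters it was in none.

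Motifs of hepatocyte factors were less common but also exceeded the windows. Any of HNF4A, FOXA, and HNF1 was present in 583 members (7.604%, 7.03% to 8.22%), against 5.70% of near intergenic regions, 6.53% of intronic regions, and 3.49% of the windows. The HNF4A motif CAAAGTCCA was in 102 members (1.33%, 1.10% to 1.61%), which is 4.53 times its share in the windows, and its difference from the near intergenic share was 0.29 percentage points (-0.01 to 0.61), with the far share higher on 9 chromosomes and lower on 10. FOXA letters TGTTTAC were in 401 members (5.23%), 1.25 percentage points (0.67 to 1.86) above the near intergenic share, on 14 of 19 chromosomes. The HNF1 motif GTTAATNAT was in 99 (1.29%), 0.47 percentage points (0.19 to 0.78) above it. FOXA letters were also the more frequent in far intergenic regions within each class of GC content, at 7.62% and 6.10% under 45% and 2.86% and 2.21% at 55% or more, and the HNF1 motif in 2 of the 4 classes, although the intervals of the far and near shares overlapped in every class for both motifs. As for C/EBP, no interval of the difference was computed within a class. The GATA motif AGATAAG was in 259 members (3.38%) and 2.49% of the windows, and the SOX motif CCATTGTT, like GATA that of endothelial factors among others, in 62 (0.809%) and 0.874%. Both shares were above those of near intergenic regions, by 0.61 (0.13 to 1.10) percentage points for GATA and 0.29 (0.07 to 0.54) for SOX. By GC content, far and near GATA shares were 4.12% and 3.34% under 45% and 3.74% and 3.24% at 45% to 50%. They were 2.68% and 2.78% at 50% to 55% and 2.70% and 1.87% at 55% or more. The separate intervals of the GATA shares overlapped in every class, and SOX was not compared within classes.

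The SP/KLF, NRF1, and E-box motifs were rarer in far than in near intergenic regions, and the other clock motifs were not. The SP/KLF motif was in 73 members (0.952%) against 1.77% of near intergenic and 12.48% of promoter regions, and the NRF1 motif in 27 (0.352%) against 0.631% and 7.43%. This order did not hold in every class of GC content. For far and near intergenic regions under 45%, SP/KLF shares were 0.157% and 0.134%, and NRF1 shares 0.0522% and 0.0445%. At 50% to 55%, they were 0.940% and 1.15% for SP/KLF and 0.564% and 0.434% for NRF1. In the other classes both motifs were rarer in far intergenic regions. The E-box CACGTG, which the clock factors BMAL1 and CLOCK bind along with other basic helix-loop-helix proteins, was in 311 members (4.06%) and 2.22% of the windows. With its letters in reversed order, the share of members was 4.11%. The E-box holds a CpG and its reversed letters do not, so these shares are not a like comparison. The E-box share was 1.67 percentage points lower than in near intergenic regions (far minus near -2.24 to -1.08), and was lower on 18 of 19 chromosomes. It was also the lower one in each class of GC content, at 1.98% and 3.34% under 45% and 5.81% and 7.34% at 55% or more. For the E-box, SP/KLF, and NRF1 motifs, the separate intervals of the far and near shares overlapped in every class. The RORE ANTAGGTCA was in 74 members (0.965%, 0.770% to 1.21%), in 0.483% of the windows, and 0.20 percentage points above near intergenic regions (-0.05 to 0.48). The sterol response element TCACCCCAC, which SREBPs recognize, was in 22 members (0.287%), near its share in the windows (0.293%). The D-box TTATGTAA, bound by the clock output factors DBP, HLF, and TEF, was in 79 members (1.03%), 0.835% of the windows, and 1.00% of near intergenic regions. The NFY motif AGCCAAT was in 279 members (3.64%) and 3.25% of near intergenic regions, the ETS motif CCGGAAGT in 44 (0.574%), and the TEAD motif ACATTCCA in 81 (1.06%). NF-κB and STAT, which act in inflammation, had matches in 202 (2.63%) and 90 members (1.17%), with the STAT pattern TTCCNGGAA.

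Many members stood near other members. With neighboring members linked at the distance commonly used to join enhancers into super-enhancers, 2701 (35.2%) fell into 648 clusters of at least 3, another 836 pairs were found, and 3294 members (43.0%) stood alone. Clusters of at least 5 numbered 158. Members close together were counted separately. Another open region lay within 1 kb of 19.4% of members, against 24.6% of near intergenic regions. Joining all regions at most 500 bp apart left 7053 far intergenic regions in place of 7667. Clusters were not counted after this joining, and whether close members are parts of the same open site was not tested. The nearest open region of any class was a median of 7.79 kb away, against 3.38 kb for near intergenic regions, and 1427 members (18.6%) had none within 50 kb, against 2.38% of near intergenic regions. Members in clusters and the others had similar motif shares, with AP-1 in 9.55% (8.50% to 10.7%) and 8.18% (7.45% to 8.97%), PU.1 in 4.44% and 4.43%, and C/EBP in 14.4% and 14.7%.

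The largest cluster held 28 members over 62.8 kb at chr8:129348671-129411466, all nearest to *Tomm20*, a receptor of mitochondrial protein import, at 58.3 to 121 kb from its start. Its members were up to 352 bp wide, and 7 held the AP-1, 4 the C/EBP, and 0 the PU.1 motif. Another cluster of 15 lay in the same stretch, at chr8:129244549-129312608. Between *Irf2bp2*, a transcriptional corepressor, and *Tomm20* there were 57 members in 0.252 Mb of far intergenic sequence (226 per Mb), the most between any neighboring coding starts. The second cluster held 26 members over 110 kb at chr17:84425709-84535862, at 50.7 to 161 kb from *Zfp36l2*, which encodes a protein that destabilizes mRNAs with AU-rich elements. Of these, 3 held the PU.1, 3 the AP-1, 0 the C/EBP, and 1 the CTCF motif.

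A small set of genes took many of the members. Each member was assigned to the coding gene with the nearest start, which does not show that it acts on that gene. Members close together were counted separately here too, and counts per gene were not repeated after joining them. Of 21418 coding genes on chromosomes 1 to 19, 4939 were nearest to some far intergenic sequence, 2358 of them (47.7%) had at least 1 member, and 2581 had none. The 119 genes with at least 10 members were nearest to 22.0% of all members and to 5.85% of far intergenic sequence. They were chosen by their number of members, so this excess is partly built in. The intervals given below for leading genes do not allow for that choice. Densities of genes and gene lists below were not matched for distance to a coding start. Over all far intergenic sequence the density was 18.1 per Mb at 50 to 100 kb and 1.18 beyond 1000 kb. The value of 8.73 per Mb is therefore not a like baseline for genes whose far intergenic sequence lies mostly at 1 distance.

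*Tomm20* (ENSMUSG00000058779.7, chromosome 8, 129458043 to 129469723, minus strand) led with 37 members, or 293 per Mb of the sequence nearest to it (206 to 404). The next was *Gadd45g* (ENSMUSG00000021453.2, chromosome 13, 51942047 to 51943837, plus strand), a stress-induced growth arrest gene, with 32 (111 per Mb, 76.1 to 157). *Id2* (ENSMUSG00000020644.8, chromosome 12, 25778666 to 25780957, minus strand), an inhibitor of helix-loop-helix factors, had 29 (47.7 per Mb), of which 7 held the PU.1 motif. *Zfp36l2* had 26 (216 per Mb). All 4 of these genes had an open start.

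Several of the leading genes encode transcription factors or cofactors. *Rreb1* (25 members, 150 per Mb), *Maf* (24, 36.9 per Mb), *Klf4* (20, 39.8 per Mb), and *Klf6* (20, 25.4 per Mb) encode DNA-binding transcription factors, and *Ets1* (19, 22.8 per Mb) encodes the founding member of the ETS family. *Tbl1xr1* (23, 12.9 per Mb) encodes a subunit of the NCoR corepressor complex, *Irf2bp2* had 22 (163 per Mb), and *Rybp* (22, 60.5 per Mb) encodes a Polycomb protein. *Btg1* (25, 38.4 per Mb) is an antiproliferative gene, *Ly86* (21, 87.4 per Mb) encodes the MD-1 partner of a toll-like receptor homolog, and *Cd47* (20, 110 per Mb) the signal that protects cells from phagocytosis. The other genes of the leading 20 were *3110018I06Rik* (25), *Ajap1* (21), *Cdh26* (19), *Sipa1l2* (18), and *1190002N15Rik* (18). *Jmjd1c*, also with 18, followed at a lower density. Of the leading 20 genes, 16 had an open start, and the 4 without one were *3110018I06Rik*, *Ajap1*, *Cdh26*, and *Sipa1l2*.

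**Figure D5:**
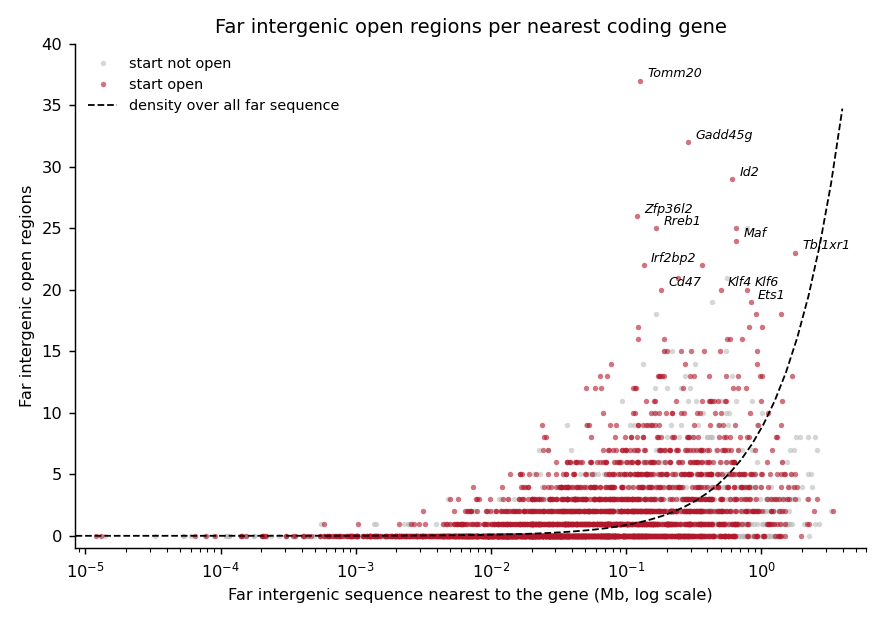
Number of far intergenic open regions nearest to each coding gene (vertical axis) against the far intergenic sequence nearest to it in Mb (horizontal axis, log scale), with red points for genes with an open start, gray points for the others, and a dashed curve at the density over all such sequence (8.73 per Mb). *Tomm20*, with 37 regions in 0.126 Mb, stands highest. The other labeled genes, chosen from the 20 with the most regions, also lie above the curve. The curve does not allow for the fall of density with distance from a coding start.

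Members were denser around genes whose own start was open. An open region lay within 1 kb of a start of 60.9% of genes with at least 1 member, 46.3% of genes with far intergenic sequence and no member, 76.5% (91 of 119) of genes with at least 10, and 57.7% of all coding genes. Sequence nearest to genes with an open start held 12.1 members per Mb (5162 members in 427 Mb), and sequence nearest to the other genes 5.54 per Mb (2505 in 452 Mb). The ratio of 2.18 was above 1 on 19 of 19 chromosomes, where it ran from 1.29 to 3.35. This split was chosen after the data were seen, and the 2 groups were not matched for distance to a coding start.

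Among the gene lists, macrophage transcription factors stood high, below only the sterol and lipid genes (30.5 per Mb). Of the 29 annotated genes of this list, 17 were nearest to far intergenic sequence, and 15 of them had 145 members in all, or 23.4 per Mb (19.8 to 27.6), against 8.73 per Mb over all coding genes. Beside *Rreb1*, *Maf*, *Klf4*, and *Klf6*, *Zeb2*, a repressor needed for macrophage identity, had at least 10 (13, 7.69 per Mb). The 5 genes held 102 of the 145 members. An open start was found at 27 of the 29 genes (93.1%), against 57.7% of all coding genes. This was not particular to the list. The share was 100% for clock genes and for sterol and lipid genes, 90% for hepatocyte genes, and 86.7% for endothelial genes. It was lower in the other lists, such as 50% for stellate cell genes. Sequence nearest to all genes with an open start held 12.1 members per Mb. The list was chosen with earlier results of these data known, and these densities were not matched for distance to a coding start. Hepatocyte genes had 50 members around 10 of 10 genes (14.2 per Mb, 10.6 to 18.8), and none reached 10 members. Endothelial genes had 55 members around 11 of 17 genes (9.35 per Mb, 7.05 to 12.2), of which *Bmp2*, the endothelial signal that induces hepcidin, had 12. Stellate cell genes had 22 around 9 of 14 genes (9.55 per Mb, 5.99 to 14.5).

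Genes of the pathways under study had few members, and little far intergenic sequence is nearest to them. Clock genes had 7 members around 4 of 9 genes (5.25 per Mb, 2.11 to 10.8). Sterol and lipid genes had 14 around 4 of 4 genes in 0.459 Mb (30.5 per Mb, 16.7 to 51.2), and 10 of these were nearest to *Mylip* (89.0 per Mb, 42.7 to 164), which encodes the ligase that degrades the LDL receptor. Cytokine and chemokine genes had 4 around 2 of 5 genes in 0.363 Mb (11.0 per Mb, 3.002 to 28.2).

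Developmental regulators, which border many gene deserts, were near the level of all genes. Developmental transcription factors had 123 members around 31 of 45 genes (8.36 per Mb, 6.94 to 9.97), of which *Id2* took 29 and *Sall3*, on chromosome 18, took 11. Signaling ligands and receptors had 95 around 21 of 27 genes (10.9 per Mb, 8.80 to 13.3), with 12 at *Vegfa* (106 per Mb, 54.9 to 186) and 12 at *Bmp2*, which is in both lists. Neuron and muscle genes had 15 members around 9 of 17 genes in 9.03 Mb (1.66 per Mb, 0.929 to 2.74). Odorant and vomeronasal receptor genes had 18 around 10 of 131 genes (3.82 per Mb, 2.26 to 6.03). These lists are descriptions, not matched for distance to a coding start, and no test was run on them.

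Long gene deserts were sparsely filled. Of 3266 stretches between neighboring coding starts with far intergenic sequence, 1440 (44.1%) held no member. The 294 stretches of at least 1 Mb held 49.0% of the far intergenic sequence but 19.8% of the members, or 3.54 per Mb against 13.7 per Mb in shorter stretches. Of these 294, 40 held no member, and the median density was 2.17 per Mb. Some were well filled, with 37 members between *Id2* and *Rnf144a* (31.9 per Mb over 1.16 Mb) and 26 between *Ppap2b* and *Usp24* (26.7 per Mb over 0.975 Mb). By contrast, no member lay in the 1.09 Mb of far intergenic sequence between *Pcmtd1* and *Sntg1* or in the 1.04 Mb between *1700018B24Rik* and *Pcdh18*. Stretches with at least 10 members numbered 159 and held 2553 members.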

How the data were processed

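Fast-ATAC-Seq libraries of liver macrophages were made from 18 samples, in 3 genotypes and 2 zeitgeber times with 3 replicates each. The authors trimmed adapters with the Kundaje laboratory ATAC-Seq pipeline, aligned reads to mm9 with Bowtie, merged the replicates, and made peaks, and the submitters' processing notes also name HOMER. The peak caller, its threshold, and the versions are not given in the sources used here. The deposited file used here is 1 list of peak coordinates (chromosome, start, end) in mm9, with no count, score, or sample. Reads were not analysed here, so the depth behind the list is unknown and no comparison between groups was made.

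Regions were classed by midpoint against the GENCODE annotation of mm9 (37310 genes, 22380 of them protein-coding), and their sequence was read from the same assembly. Start sites are those of transcripts. Density is regions per Mb of assembled sequence that meets the same rule, with exact Poisson intervals at 95%. Shares have Wilson intervals and differences of shares Newcombe intervals, and "n of 19 chromosomes" is a count, not a test. The 24 motifs were searched on both strands by exact letters, in the whole region, in windows of equal width 2 kb to either side, and with reversed letters. Reversed letters keep the base composition of a motif but can gain or lose a CpG. Patterns may overlap: the MAF pattern can share bases with that of AP-1. Motifs of at least 10 letters are named only. Clusters hold at least 3 members linked at 12.5 kb or less. Named regions were the 3 farthest, widest, richest in motifs, and highest in CpG ratio, and those next to the 50 kb limit. For printed sequences, regions mostly repeated in the genome and those on chromosome 18 were passed over. Named genes were the 20 with most members and listed genes with at least 10. The members, motifs, and gene lists were chosen with earlier results of these data known. The scripts were tested on simulated data. Tools were Python 3.11.15, NumPy 2.4.6, pandas 2.3.3, SciPy 1.17.1, Numba 0.67.0, and matplotlib 3.10.9.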

Additional observations from a re-analysis of the deposited data

How the results depend on the processing

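No paired analysis was possible because no value in the file belongs to a single library. Of 85 alternative values, 55 stayed close to the value given and 30 did not, where close means within its 95% interval or, for the number of regions, within 1.5 times. The number was 5491 at over 50 kb from any start. No difference of motif share between far and near intergenic regions changed sign in the 10 motifs compared under 7 alternatives. The alternatives for C/EBP, the classes of GC content, the split by open starts, and the shift by 35 bp were chosen after seeing the data. The number of regions was 11788 over 25 kb, 4231 over 100 kb, and 1993 with a width of at least 200 bp. The density was 8.05 per Mb with unassembled bases counted, 11.3 over 25 kb, 6.14 over 100 kb, 8.03 with regions joined at 500 bp, and 8.48 to 8.91 when 1 chromosome was left out. With only the center of each region searched, at the width of the narrowest member, the shares were 7.67% for AP-1, 3.98% for PU.1, 4.45% for FOXA, and 12.495% for C/EBP. With 500 bp searched, they were 15.2% for AP-1, 7.92% for PU.1, 1.97% for CTCF, 2.05% for HNF4A, 10.7% for FOXA, and 28.4% for C/EBP, since more bases were searched. In regions of at least 200 bp, they were 11.8% for AP-1, 1.91% for CTCF, 1.96% for HNF4A, 8.13% for FOXA, and 21.7% for C/EBP. Over 25 kb, CTCF was 1.90% and C/EBP 13.6%, and over 100 kb, CTCF was 1.11% and FOXA 5.84%. CpG-rich regions were 1.13% with a GC content of at least 55% and a ratio of at least 0.65. Clusters held 18.2% of members when linked at 5 kb and 49.8% at 25 kb. The list gives no depth, so how many far intergenic regions the peak calling missed is unknown.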
